A study of Caenorhabditis elegans with 2 samples.

Results

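Nuclear genes for mitochondrial proteins were examined for binding by ZTF-11 in C. elegans embryos. They were the nuclear protein-coding genes whose names start with cox-, nuo-, nduf-, atp-, mrpl-, mrps-, tomm- or timm- in Ensembl release 115 of the WBcel235 assembly, which is the ce11 build of the peak files. The names selected 110 of 19973 nuclear protein-coding genes, with no measured value used. Of the 110, 32 were respiratory genes, 8 were import genes and 70 were mitochondrial ribosome genes. The respiratory genes comprised 7 cytochrome c oxidase subunits, 8 cytochrome c oxidase assembly factors, 12 complex I subunits and 5 ATP synthase subunits. The import genes comprised 5 of the outer membrane translocase and 3 of the inner membrane translocase. The ribosome genes comprised 41 of the large and 29 of the small subunit.

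The assay was ChIP-seq for eGFP-tagged ZTF-11, in which chromatin fragments bound by the tagged protein are recovered and sequenced. All material came from 1 strain, OP236, which carries the wgIs236 insertion for tagged ztf-11 and the unc-119(ed3) allele on chromosome III. Whole embryos of mixed stages and both sexes, of unstated age, were pooled in each of 2 biological replicates. Neither the promoter that drives the tagged gene nor the extraction steps are given in the sources used here, and an input or untagged control was not analysed here. There was no second genotype, stage or treatment, so no condition could be tested against another, and the shares set side by side here are descriptions. Whole embryos mix many cell types, so binding in few nuclei and weak binding in many cannot be told apart, and peak lists do not show where or how strongly the tagged protein was made.

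ZTF-11 is a zinc-finger protein of the Myt1 family, known in worms for a role in making neurons. Mitochondria make ATP through a chain of inner membrane complexes, the last of which, cytochrome c oxidase, passes electrons to oxygen, and through the ATP synthase that uses the resulting proton gradient. Nearly all of the proteins involved are encoded in the nucleus, made in the cytosol and brought in through translocases of the outer (TOM) and inner (TIM) membrane. The few proteins encoded in mitochondrial DNA are made by a separate mitochondrial ribosome, all of whose proteins are nuclear-encoded as well. Many C. elegans genes lie in operons, where several genes are transcribed from 1 upstream promoter.

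Sequences around 5 ZTF-11 summits are shown first: those at 3 cytochrome c oxidase genes, among the strongest summits described here, and those at tomm-20 and mrpl-12, which share a run of bases. Each has 101 bases of ce11 centred on the summit, 5′ to 3′ on the strand of the gene. Capitals mark a 13-base run shared by the tomm-20 and mrpl-12 sequences, and the words AAGTGCGC (GCGCACTT on the other strand) and ACCTCTCA (TGAGAGGT on the other strand), the 8-base words held by 3 of the 9 summits of these genes in the most stringent peak list. The run and words were picked out after the sequences had been read.
cox-5A (chrIII:12905152-12905252, plus strand): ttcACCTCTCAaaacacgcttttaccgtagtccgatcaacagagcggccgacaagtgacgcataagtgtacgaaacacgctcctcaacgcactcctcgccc
cox-6B (chrIII:2786007-2786107, plus strand): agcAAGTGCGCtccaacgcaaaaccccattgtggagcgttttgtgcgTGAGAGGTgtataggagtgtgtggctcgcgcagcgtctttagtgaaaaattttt
cox-6A (chrIII:5080877-5080977, plus strand): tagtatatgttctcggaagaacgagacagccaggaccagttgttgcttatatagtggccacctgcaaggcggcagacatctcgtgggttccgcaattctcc
tomm-20 (chrV:12343722-12343822, minus strand): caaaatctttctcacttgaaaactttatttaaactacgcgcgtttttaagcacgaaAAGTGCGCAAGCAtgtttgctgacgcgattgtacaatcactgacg
mrpl-12 (chrIII:10707193-10707293, plus strand): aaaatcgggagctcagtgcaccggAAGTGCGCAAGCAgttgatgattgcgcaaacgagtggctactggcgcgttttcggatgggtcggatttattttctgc

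The run AAGTGCGCAAGCA occurred at 5 places in the nuclear chromosomes, on either strand. All 5 lay within 50 bp of a pooled summit, and 4 of the 5 within 50 bp of a thresholded summit. The places at tomm-20 and mrpl-12 are in both counts because the run was picked from those summits. No share for other runs of that length is given here. The other places were 163 bp upstream of rpl-24.2, 236 bp upstream of apb-1 and 28 bp upstream of ZK973.8, of which the last had a pooled summit (signal 29.7) and no thresholded one. The 8 letters AAGTGCGC, which begin the run, were also in the cox-6B sequence, and lay within 50 bp of 22 of 698 thresholded summits (3.15%) and 91 of 11998 pooled summits (0.758%). The word ACCTCTCA was at the cox-5A, cox-6B and mrpl-23 summits, and at 6 of the 698 (0.86%) and 21 of the 11998 (0.175%). The counts for each word include the 3 summits it was picked from. These are matches of letters and were not tested as sites.

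A gene was counted as having a summit when the highest point of a peak fell in a window around a 5′ end of one of its protein-coding transcripts, reaching 1000 bp upstream and 200 bp downstream. The authors' thresholded list, which keeps the peaks that passed their reproducibility cutoff, held 721 peaks, 698 of them nuclear. Signal below is the value the authors' caller gave each peak against a control, on a scale that is not stated. It is used only to describe and rank peaks within a list. In the thresholded list, 8 of the 110 genes had a summit (7.27%), against 529 of 19973 protein-coding genes (2.65%). The 8 genes were cox-5A, cox-5B, cox-6A, cox-6B, atp-3, tomm-20, mrpl-12 and mrpl-23. By group, 5 of 32 respiratory genes (15.6%), 1 of 8 import genes (12.5%) and 2 of 70 ribosome genes (2.86%) had one. The share for the mitochondrial ribosome was thus close to that of all genes, and 4 of the 5 respiratory genes encoded cytochrome c oxidase subunits.

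Cytochrome c oxidase subunit genes, a finer split of the respiratory genes, held the highest ranks of the 110 genes, though mrpl-23 (rank 352) ranked above cox-6A (rank 364). Of the 7 subunit genes, 4 had a thresholded summit (57.1%), and all 7 had one in the pooled list, called by the authors on both replicates together. The authors label the pooled list as peaks and background, so a summit in it alone does not show binding. None of the 8 cytochrome c oxidase assembly factor genes had a thresholded summit.

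The strongest was at cox-5B, chrI:9788530-9788885, with its summit 17 bp upstream of the 5′ end in intergenic sequence. Its signal was 91.3 in the pooled list, where it ranked 67, and the nearest summits of the replicates had 56.5 in replicate 1 (rank 56) and 35.0 in replicate 2 (rank 135). A second summit of cox-5B, 744 bp upstream (chrI:9787803-9788158, signal 45.7, rank 372), also lay in the window of tba-1, an alpha-tubulin gene on the other strand, and was closer to the 5′ end of tba-1, at 357 bp. That peak had 20.7 in replicate 1 (rank 656) and 29.2 in replicate 2 (rank 215). cox-5B was the only one of the 8 genes with more than 1 thresholded summit.

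cox-5A and cox-6B had nearly the same signal. The cox-5A summit lay 289 bp upstream of its 5′ end in intergenic sequence (chrIII:12905024-12905379), in no other gene's window, with a signal of 69.2 (rank 151), and with 42.9 in replicate 1 (rank 115) and 26.8 in replicate 2 (rank 264). The cox-6B summit (chrIII:2785879-2786234) had a signal of 68.2 (rank 157), with 34.6 in replicate 1 (rank 201) and 32.4 in replicate 2 (rank 167). It lay 145 bp upstream of the cox-6B 5′ end that RefSeq gives as the start of a 553 bp gene, and inside an intron of the 87197 bp model of cox-6B in Ensembl. With only the outermost 5′ end of that long model, cox-6B had no thresholded summit. The same summit lay 109 bp upstream of Y71H2AM.20, the nearest 5′ end, and 795 bp upstream of nduc-2, a complex I subunit gene.

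The cox-6A summit was the most distant of the 4, 797 bp upstream of the 5′ end (chrIII:5080749-5081104). Its signal was 46.3 (rank 364), with 20.6 in replicate 1 (rank 664) and 24.0 in replicate 2 (rank 332). It lay 29 bp from an annotated small nuclear RNA gene, F54D8.7. In the cox-6A peak, 24.6% of the 32-base words occurred elsewhere in the genome and the 8 other thresholded peaks of these genes held no such word, and the part of such copies in the cox-6A signal was not tested. The 4 genes cox-5A, cox-5B, cox-6A and cox-6B were the only ones of the 110 with a summit among the 721 strongest peaks of both replicates taken separately.

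The other 3 subunit genes are named to complete the complex. Their pooled signals were 24.3 at cox-6C (383 bp upstream, rank 1490), 15.1 at cox-7C (604 bp upstream, rank 6385) and 13.4 at cox-4 (406 bp upstream, rank 9478), all below the lowest thresholded signal of 33.9. Each had a summit in both replicates, with 12.2 and 12 at cox-6C, 11 and 7.52 at cox-7C and 8.54 and 8.26 at cox-4 in replicate 1 and replicate 2. At cox-7C the replicate 2 summit lay 135 bp downstream of the 5′ end, and at cox-4 the replicate 1 summit lay 125 bp upstream, so these were other places in the window than the pooled summits. The 7 subunit genes therefore spanned ranks from 67 to 9478 of 12024 pooled peaks. Of the assembly factor genes, cox-14 (pooled signal 23.4), cox-10 (20.4) and cox-17 (13.7) had a pooled summit and cox-11, cox-15, cox-16, cox-18 and cox-19 had none.

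**Figure D1:**
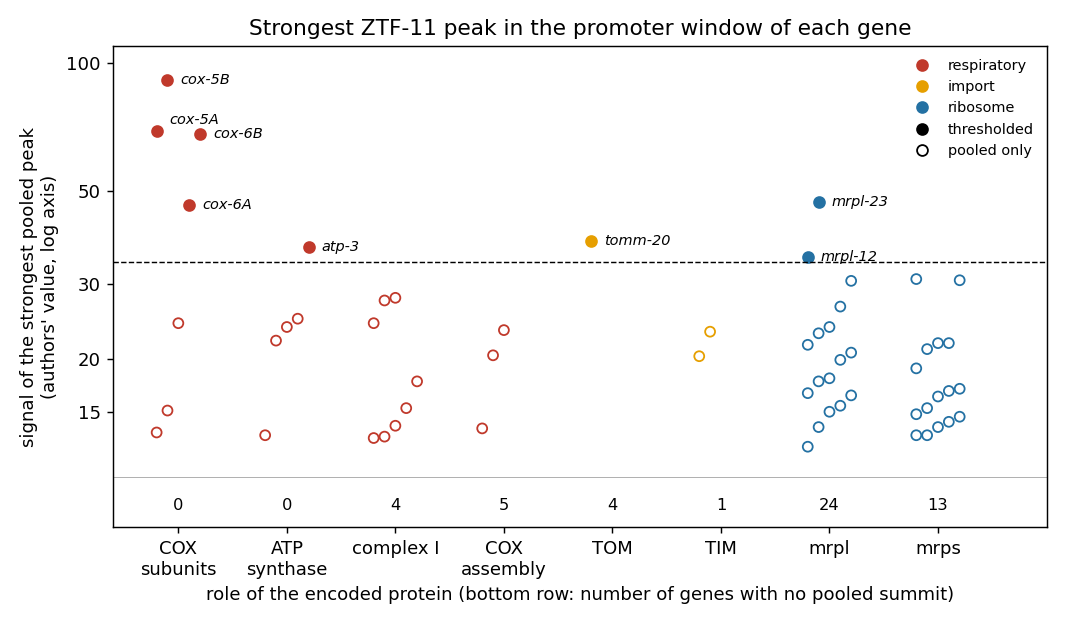
Signal of the strongest pooled peak in the promoter window of each gene (log axis), grouped by the role of the encoded protein, with filled points for thresholded peaks, open points for peaks of the pooled list only and the dashed line at the lowest thresholded signal, 33.9. The bottom row gives the number of genes with no pooled summit: it is 0 for cytochrome c oxidase subunits and ATP synthase, and 24 for the large mitochondrial ribosomal subunit (mrpl).

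Among the other respiratory genes only atp-3, which encodes the OSCP subunit of the ATP synthase stalk, had a thresholded summit. It lay in the 5′ untranslated region, 9 bp downstream of a 5′ end (chrI:5429721-5430076), with a signal of 36.7 (rank 601), and with 14.3 in replicate 1 (rank 2147) and 21.4 in replicate 2 (rank 422). The divergent gene F27C1.2 shared it at 258 bp, and a non-coding RNA gene, F27C1.17, lay 33 bp away. All 5 ATP synthase genes had a pooled summit. The genes atp-2 (beta subunit) and atp-1 (alpha subunit) had pooled signals of 24.9 and 23.8, and atp-4 and atp-5, named to complete the group, 22.1 and 13.2. The strongest summit in the atp-1 window ranked 529 in replicate 2 (signal 19.3, 44 bp downstream) and 2382 in replicate 1 (13.9, 77 bp upstream). It was thus among the 721 strongest in replicate 2 and outside them in replicate 1.

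Of the 12 complex I genes among the 110, none had a thresholded summit, though nduc-2, a complex I gene outside the 110, shared that of cox-6B. A pooled summit was at 8 of the 12. Complex I is the entry point of electrons from NADH. The highest were nduf-2.2 (27.9, 773 bp upstream, shared with the dynein light chain gene dlc-1), nduf-11 (27.5, 123 bp upstream) and nuo-2 (24.3, 115 bp upstream). The remaining pooled signals ran from 17.7 at nduf-9 to 13 at nuo-6. Signal at nduf-6 came from 1 replicate: its summit had 20.1 in replicate 1, the last of the 721 strongest, and replicate 2 had none in the window. The 4 genes without a pooled summit were nuo-4, nuo-5, nduf-5 and nduf-7.

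Of the import genes, tomm-20, which encodes the receptor that recognises targeting signals on incoming proteins, had the only thresholded summit. It lay 303 bp upstream in intergenic sequence (chrV:12343594-12343949), in no other gene's window, with a signal of 38.1 (rank 551). In replicate 1 it had 17.7 (rank 1047) and in replicate 2 21.6 (rank 411), so it was absent from the strongest 721 peaks of replicate 1. The other 4 outer membrane genes (tomm-7, tomm-22, tomm-40 and tomm-70) had no pooled summit. The inner membrane genes timm-23, which encodes the import channel, and timm-17B.1 had pooled signals of 23.2 and 20.3, and timm-17B.2 had none.

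At the mitochondrial ribosome genes both thresholded summits lay far from the 5′ end. The mrpl-12 summit lay 518 bp upstream (chrIII:10707065-10707420), with a signal of 34.9 (rank 666) just above the lowest thresholded value. It was closer to Y39A1A.22 and Y39A1A.21, at 215 and 221 bp, and had 22.5 in replicate 1 (rank 543) and 11.8 in replicate 2 (rank 1971). The mrpl-23 summit lay 992 bp upstream, 8 bp inside the window (chrI:6212699-6213054, signal 47.0, rank 352). It fell in an intron of fars-1, a phenylalanyl-tRNA synthetase gene that ends 95 bp upstream of mrpl-23 on the same strand, and overlapped a pseudogene that RefSeq lists as T08B2.t1, a tRNA pseudogene. It had 17.8 in replicate 1 (rank 1016) and 28.3 in replicate 2 (rank 233), where the summit fell just outside the mrpl-23 window.

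Just outside the window were thresholded summits of 2 more ribosome genes. A strong one (chrV:19643037-19643392, signal 97.2, rank 51) lay 1024 bp upstream of mrps-28, in an intron of the gene nearest to it, Y43F8C.7, and 28 bp from the small nucleolar RNA gene Y43F8C.22. The other (chrV:5592324-5592679, signal 34.3, rank 704) lay 1204 bp upstream of mrpl-48 and 198 bp upstream of vps-37, the nearest gene. Counts for the ribosome genes thus moved with the window. They were 0 of 70 within 500 bp upstream and 100 bp downstream, against 1.95% of all genes, 2 of 70 (2.86%) in the window used, against 2.65%, and 4 of 70 (5.71%) within 2000 bp upstream and 500 bp downstream, against 3.51%.

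Over the 9 thresholded summits, 4 also lay in the window of another protein-coding gene, and 133 of the 391 thresholded promoter summits of all genes did so (34%). A non-coding gene lay within 100 bp of 3 of the 9 (33.3%) and of 89 of the 391 (22.8%), and its part in the signal at cox-6A, atp-3 and mrpl-23 was not tested. The median of the strongest thresholded signal was 46.6 over the 8 genes and 46.3 over all genes with one.

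The pooled list held 12024 peaks, of which the thresholded peaks were the 721 strongest, and reached down to a signal of 12.3. In it 59 of the 110 genes had a summit (53.6%), against 4471 of 19973 genes (22.4%). That was 23 of 32 respiratory genes (71.9%), 3 of 8 import genes (37.5%) and 33 of 70 ribosome genes (47.1%). With the weaker entries included, the ribosome genes too had summits more often than all genes. Those entries include background, and how many of them are binding was not tested. The large subunit had one at 17 of 41 genes and the small subunit at 16 of 29. Within the 3000 strongest pooled peaks, 31 of the 110 genes (28.2%) had a summit against 8.49% of all genes, made up of 14 respiratory (43.8%), 3 import and 14 ribosome genes (20%).

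**Figure D2:**
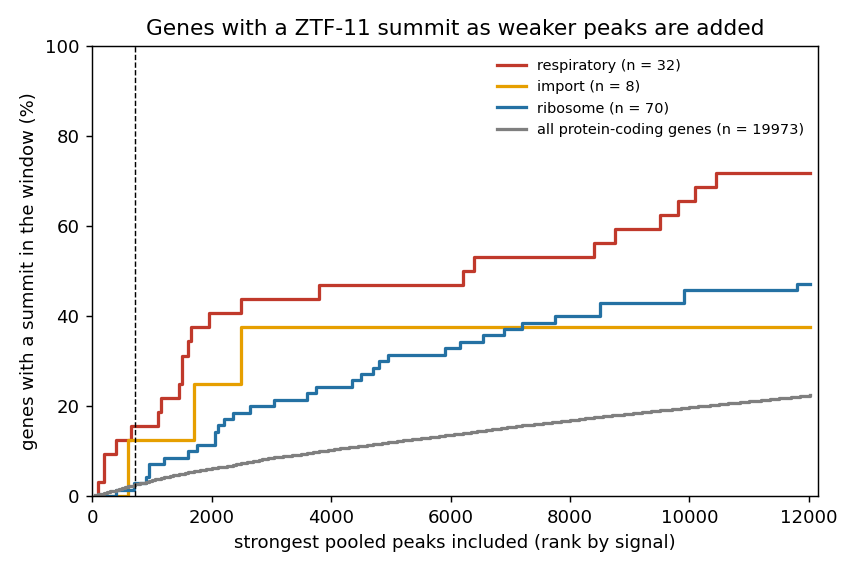
Share of genes with a summit in the window (percent) as peaks of the pooled list are added from the strongest down (rank on the horizontal axis), for the 3 groups and for all protein-coding genes, with the dashed line at 721 peaks. From 721 peaks on the respiratory line is the highest, and it ends at 71.9%, and the ribosome line, close to that of all genes at 721 peaks, ends at 47.1%, against 22.4% for all genes.

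Of the 51 genes with a pooled and no thresholded summit, the strongest were ribosome genes: mrps-34 (30.9), mrps-7 (30.7), mrpl-39 (30.6) and, after nduf-2.2 and nduf-11, mrpl-45 (26.6). All 4 summits lay within 355 bp upstream of the 5′ end and in the window of a second gene. At mrps-34 that gene was cisd-3.1, at mrps-7 Y57G11C.3, at mrpl-39 gly-7 and at mrpl-45 Y119D3B.12. The mrps-34 summit had 20.5 in replicate 1 (rank 683), whereas in replicate 2 the strongest summit of the window had 7.21 (rank 8818) and lay downstream of the 5′ end. The mrps-7 and mrpl-39 summits had similar ranks in the 2 replicates, 1158 and 1081 in replicate 1 and 1061 and 886 in replicate 2. At mrps-7 the strongest summit lay 205 bp upstream in replicate 1 and 103 bp upstream in replicate 2.

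Beside 2 other sets of genes for large complexes, the 110 genes, with 7.27% in the thresholded list, lay between cytosolic ribosomal protein genes (20 of 78, 25.6%) and proteasome subunit genes (2 of 33, 6.06%). In the pooled list their 53.6% was below both, at 61 of 78 (78.2%) for cytosolic ribosomal proteins and 21 of 33 (63.6%) for the proteasome, while the 71.9% of the respiratory genes lay between the 2 sets. Some of these genes share a summit: nuo-1 shared its pooled summit with rpl-36.A, mrpl-49 with rpl-28, and mrps-6 with the proteasome gene rpn-8, which were singled out after their values were seen.

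Each replicate had its own list of 30000 relaxed peaks. In replicate 1, 71 of the 110 genes had a summit (64.5%), against 41.5% of all genes, and in replicate 2, 70 (63.6%), against 41.9%. Both replicates had one at 54 genes (49.1%), against 24% of all genes. Only replicate 1 had one at 17 genes (15.5%, against 17.5% of all genes) and only replicate 2 at 16 (14.5%, against 18%), both close to or below the shares of all genes. In 23 genes (20.9%) neither replicate nor the pooled list had any summit, against 40.4% of all genes.

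The 721 strongest peaks of each replicate list were then taken alone. Replicate 1 had summits at 7 of the 110 genes (6.36%, against 2.5% of all genes) and replicate 2 at 9 (8.18%, against 2.33%), and the 2 sets had 4 genes in common (3.64% of the 110), all cytochrome c oxidase subunits. Of all genes, 274 (1.37%) were in both sets, out of 499 in replicate 1 and 465 in replicate 2. The 3 in replicate 1 only were mrpl-12, mrps-34 and nduf-6. The 5 in replicate 2 only were atp-1, atp-3, tomm-20, mrpl-28 (17.2, rank 712) and mrpl-40 (18.6, rank 584). Replicate 1 ranked mrpl-28 at 6815 and mrpl-40 at 4741, in both cases with a summit elsewhere in the window. For genes with a summit in both replicates, the strongest summits of the 2 replicates lay within 100 bp of each other at 26 of 54 (48.1%), against 34.9% of all genes with both. The Spearman correlation of signal between the replicates was lower, at 0.367 over the 54 and 0.443 over all 4784 genes with both.

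**Figure D3:**
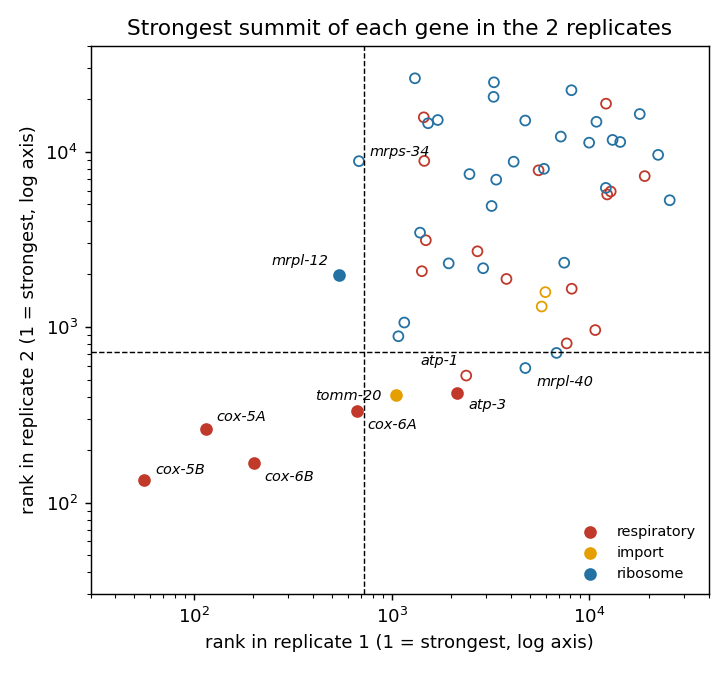
Rank of the strongest summit of each of the 54 genes with a summit in both replicates, in replicate 1 and in replicate 2 (log axes, 1 is the strongest, dashed lines at rank 721), with filled points for genes with a thresholded summit. The 4 cytochrome c oxidase subunit genes are in the lower left, strong in both replicates. Of the other filled points atp-3 and tomm-20 pass only the line of replicate 2, and mrpl-12 only that of replicate 1. mrpl-23 is not drawn because its replicate 2 summit fell outside the window.

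Pooled summits lay mostly close to the 5′ end. The strongest one of each gene was a median of 257 bp upstream for the 59 genes and 282 bp for all genes, and 27 of the 59 (45.8%) lay within 300 bp upstream, against 39.5% for all genes. Downstream of the 5′ end lay 10 of the 59 (16.9%), against 12.7%. Of the 65 pooled summits of these genes, 34 (52.3%) also lay in another gene's window, against 17.8% of all pooled promoter summits. The 110 genes had close neighbours: the median distance to the next gene upstream was 322.5 bp, against 937 bp for all genes.

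**Figure D4:**
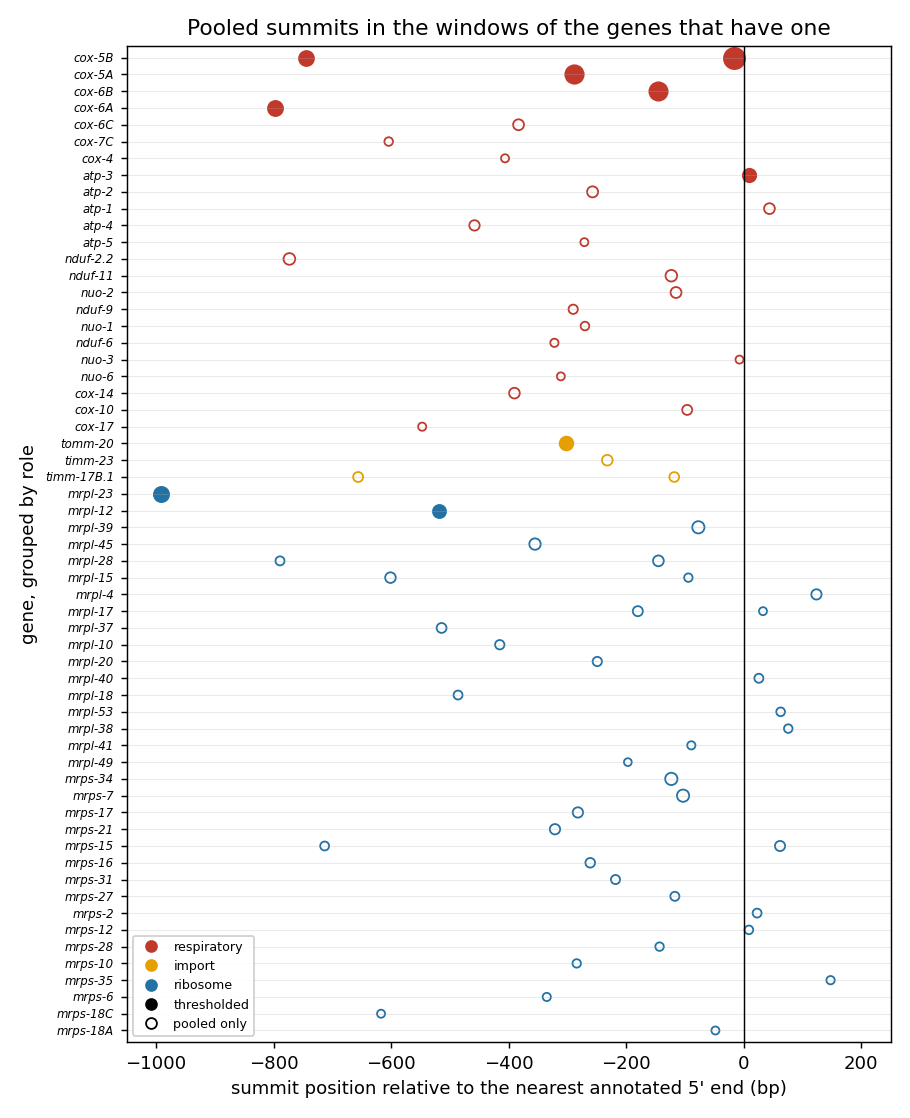
Position of each pooled summit relative to the nearest annotated 5′ end (bp, negative is upstream) for the 59 genes that have one, grouped by role and ordered by signal within a role, with the area of a point proportional to signal and filled points for thresholded summits. Most points fall between the 5′ end and 400 bp upstream, whereas the filled points of mrpl-23, cox-6A, mrpl-12 and the second summit of cox-5B lie at 992, 797, 518 and 744 bp.

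Of the 110 genes, those placed behind another gene had a summit less often than the others. A gene was called behind another when a gene on the same strand ended within 500 bp upstream, as inner genes of an operon do. That held for 39 of the 110 genes (35.5%), against 18.1% of all genes and 10.3% of cytosolic ribosomal protein genes. In the pooled list 12 of the 39 had a summit (30.8%) and 47 of the 71 others (66.2%), while for all genes the shares were 18.4% and 23.3%. In the thresholded list 1 of the 39, mrpl-23 (2.56%), and 7 of the 71 (9.86%) had one, while for all genes the shares were 1.24% behind another gene and 2.96% not behind one. Of the cytochrome c oxidase genes, none of the 7 subunit genes and 5 of the 8 assembly factor genes lay behind another. Of the 3 assembly factor genes not behind one, 0 had a thresholded and 2 a pooled summit, against 4 and 7 of the 7 subunit genes. Of the ribosome genes, 7 of 27 behind another (25.9%) had a pooled summit, against 26 of 43 not behind one (60.5%). Their thresholded shares did not follow this, at 1 of 27 (3.7%) behind another and 1 of 43 (2.33%) not behind one. Operons themselves were not identified here.

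By chromosome, 27 of the genes were on I, 18 on II, 33 on III, 17 on IV, 15 on V and none on X, which carries 2731 protein-coding genes. The 8 genes with a thresholded summit were 3 on I, 4 on III and 1 on V, where 3.75%, 3.6% and 1.38% of all genes had one. A pooled summit was at 16 of the 27 genes on I, against 28.9% of all genes there, at 10 of 18 on II, against 21.8%, and at 18 of 33 on III, against 27.8%. It was at 5 of 17 genes on IV, against 21.6%, and at 10 of 15 on V, against 15.7%.

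A set of 8 short motifs, none of which contains another, was searched on both strands within 50 bp of each summit, among them AAGTT, the core recognised by the Myt1 family. It was at 1 of the 9 thresholded summits, that of tomm-20, at 8.31% of the 698 thresholded summits, and in 33.7% of stretches of the same length ending at a 5′ end. CCGGAA was at 1 of 9 (mrpl-12, where its last bases overlap the shared run) against 1.72%, TGCGTC at 1 of 9 (cox-5A) against 16%, GGGCGG at 1 of 9 against 10.3% and GAGAGA at 1 of 9 against 28.9%. TTTGAA, GCGCATGC and TTCGCGC were at none, against 13%, 0.573% and 1.86%. At the strongest pooled summits of the 59 genes, AAGTT was in 13.6%, against 24.9% of all pooled summits in promoter windows, TTTGAA in 18.6% against 22%, GAGAGA in 1.69% against 11.7% and TGCGTC in 3.39% against 6.66%. The other 4 were in larger shares of the 59: GGGCGG in 10.2% against 4.57%, CCGGAA in 5.08% against 3.42%, TTCGCGC in 3.39% against 1.42% and GCGCATGC in 1.69% (1 summit) against 0.276%. The 2 sets are unlike, because the 59 are the strongest summit of each gene and the comparison set holds every pooled promoter summit. Median G and C was 42.6% at the 59 and 39.6% in the comparison set. The part of peak strength or base content in these gaps was not tested. Within 100 bp the shares for AAGTT were 42.4% and 43.8% and for TTTGAA 39% and 39.6%, so the gaps for AAGTT and TTTGAA were nearly gone at that distance. Larger gaps stayed for GAGAGA (8.47% and 22.5%), GGGCGG (13.6% and 7.79%) and CCGGAA (11.9% and 6.59%). TGCGTC had 10.2% and 11.9%, TTCGCGC 3.39% and 2.76%, and GCGCATGC 1.69% and 0.436%. The sequence at the 9 summits had a median of 51.5% G and C, equal to that at all thresholded summits, whereas 101-base stretches up to a 5′ end had 27.7% for the 110 genes and 31.7% for all genes.

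Genes with other names that encode mitochondrial proteins or act in the mitochondrial stress response were taken from 9 lists. Of their 181 symbols, 159 matched. In the thresholded list 10 of the 159 had a summit (6.29%) and in the pooled list 60 (37.7%), against 2.65% and 22.4% of all genes. The counts in the thresholded list were 2 of 28 for other respiratory subunits, 3 of 26 for other import and chaperone genes, 1 of 19 for mitochondrial translation and 2 of 26 for the TCA cycle and pyruvate. They were 1 of 21 for carriers and channels, 1 of 6 for mtDNA maintenance, 1 of 12 for the mitochondrial stress response, 0 of 8 for ubiquinone synthesis and 0 of 18 for dynamics and quality control. The gene hsp-60 was in 2 of the lists.

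The 3 strongest of the 10 exceeded all of the 110 genes. They were idhg-1, an isocitrate dehydrogenase subunit gene (signal 132, 65 bp upstream, 71.5 in replicate 1 and 65.5 in replicate 2), ears-2, a mitochondrial glutamyl-tRNA synthetase gene (117, 36 bp upstream, 70.0 and 50.4), and hsp-60, the mitochondrial chaperonin gene (92.1, 585 bp upstream, 48.7 and 44.5). All 3 shared the summit with the neighbouring gene, which was mlcd-1 at idhg-1, uncp-18 at ears-2 and Y22D7AL.10 at hsp-60. Next came mtss-1, which encodes the single-stranded DNA-binding protein of mitochondrial DNA (58.4), and ddp-1 (45.6), which encodes a small carrier protein of the import system. The rest were sucl-1, a succinyl-CoA ligase gene (43.9), asg-2, an ATP synthase subunit gene (43.7), mtx-1, a metaxin gene (40.6), mev-1, a complex II subunit gene (36.9), and micu-1, a regulator of calcium uptake (35.4). All but sucl-1 shared the summit with a neighbour, and sucl-1 and asg-2 lie on X, where none of the 110 genes is found.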

How the data were processed

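ChIP-seq peak lists from 2 biological replicates were used as deposited, in the ce11 build given by the labels. Per the deposited file listing, relaxed peaks were called by the authors on each replicate and on both pooled, each with a control, and the thresholded list was made from them by the irreproducible discovery rate. The pooled list is labelled as peaks and background used as input for that step. For the caller, the aligner and the cutoff, a name or version is not given in the sources used here. Deposited values used were the signal of each peak, an authors' value relative to the control on an unstated scale. Lists in ce10 and the 23 mitochondrial peaks were not analysed here. Read depth is unknown, so no counting interval is given.

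Summits were assigned to 5′ ends of protein-coding transcripts (Ensembl release 115) with Python 3.11.15, pandas 2.3.3 and numpy 2.4.6. The assignment was tested on simulated summits, of which 200 of 200 placed inside windows were recovered and 0 of 200 outside were assigned. Sequences came from the RefSeq genome of the same assembly.

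No hypothesis test was run. The genes and lists were chosen with earlier results of these data known. Members named by rule were those with a thresholded summit and the genes sharing it, the 10 strongest with a pooled summit only, those with a summit just outside the window, and those strong in 1 replicate only. From the other lists all genes with a thresholded summit were named. Further genes were named to complete a group or after their values were seen. Alternatives changed the window, the assignment, the 5′ ends, the peak set, the genes counted and the motif distance, and left out each replicate.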

Additional observations from a re-analysis of the deposited data

How the results depend on the processing

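No paired analysis was possible because there was a single group of 2 replicates. In the 110 genes, the thresholded count of 8 became 5 with the window cut to 500 bp upstream and 100 bp downstream, 4 with signal at or above the median of the list, and 15 with the 1442 strongest pooled peaks. The respiratory count of 5 became 3 at that median and 8 with those 1442 peaks. Of the 4 cytochrome c oxidase subunit genes, cox-6A dropped out in that narrow window and at the median. With only the nearest or only the outermost 5′ end, cox-6B dropped out, while cox-5A and cox-5B stayed in every setting. The import count of 1 became 0 at the median. The ribosome count of 2 became 0 in the narrow window, 4 in one widened to 2000 bp upstream and 500 bp downstream, 1 when each summit went to the nearest 5′ end only, 1 at the median, 6 with those 1442 peaks and 1 among the 43 genes not behind a same-strand gene. Over all genes the count of 529 became 263 at the median and 980 with those 1442 peaks. With replicate 1 or replicate 2 left out, the counts ranged from 7 to 9 for the 110 genes, 5 to 6 for respiratory, 0 to 1 for import, 2 to 2 for ribosome and 465 to 499 for all genes. Without replicate 2, tomm-20 dropped out and no import gene was left. The ribosome genes changed: without replicate 1 they were mrpl-28 and mrpl-40, 0 of the 2 shared, and without replicate 2 mrpl-12 and mrps-34, 1 shared. The median signal of 46.6 became 68.2 in the narrow window, where 5 genes remained. AAGTT was at 0 of the 9 summits within 25 bp, against 4.87% of all thresholded summits, and at 5 within 100 bp (55.6%), against 22.2%, so its share lay below or above that of all summits depending on the distance. Peaks carry no counts, so depth sets no interval here. The 5′ ends of any annotated transcript were an alternative chosen after seeing the data, and gave the same 8 genes.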
